A study of Mus musculus with 12 samples.

Results

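A set of 342 DNase I hypersensitive sites (DHSs) was open in freshly isolated marrow progenitors and in their control culture, and was absent from the highest-ranked peaks of every early T cell precursor library grown on the Notch ligand Delta1. The 342 members were 0.445% of the 76883 consensus DHSs. They were chosen from the measured peaks themselves. In each of the 12 libraries the same number of peaks, those with the highest scores on chromosomes 1 to 19 and X, was kept, overlapping peaks were merged into consensus DHSs, and a site was a member when all 6 LSK and IgG libraries and none of the 6 Delta1 libraries had a peak there. Presence at this list length, absence at this list length and ranks in LSK and IgG therefore describe how the set was made, and no test was run on them.

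DNase-seq finds accessible chromatin by digesting nuclei with DNase I and sequencing the short fragments released, so that places cut often appear as peaks. LSK cells (lineage-negative, SCA1+, KIT+) are the stem and progenitor fraction of mouse bone marrow, here of C57BL/6J mice, and 3 libraries came from such cells without culture. The 3 IgG libraries came from LSK cells cultured on human IgG1 with no Notch ligand. The Delta1 libraries came from LSK cells cultured on a high density of immobilized Delta1 ext-IgG. Those cells were sorted by KIT, CD44 and CD25 into DN1, DN2a and DN2b cells, with 2 libraries each. The cultures shared a medium with SCF, FLT-3 ligand, IL-6 and IL-11. The study's methods state that DN1 cells were taken without IL-7 and both DN2 populations after IL-7 was added, so stage and IL-7 cannot be told apart between DN1 and DN2 libraries, and that cells of all DN stages came from each LSK isolate. For IL-7 the methods name only Delta1 cultures, so between IgG and DN2 libraries Delta1 and IL-7 cannot be told apart either. The Delta1 cells were also sorted by surface markers, for which the sources used here give no counterpart in the IgG culture, so Delta1 and sorting cannot be told apart. In bulk nuclei, a site open in fewer cells and a site opened less often in each cell also cannot be told apart.

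Distal DHSs are mostly enhancers and other regulatory elements, and they are held open by transcription factors bound to short DNA patterns. Haematopoietic progenitors carry factors such as GATA2, LMO2, MYB and HOXA family members. Factors of the C/EBP family direct granulocyte and monocyte development, PU.1 acts in myeloid and early lymphoid cells, and RUNX factors act in stem cells and throughout the T lineage. Notch signalling through Delta1 turns progenitors towards the T lineage and away from myeloid fates.

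Of the sites printed here, the first 4 hold a C/EBP pattern, the pattern whose share among the members exceeded that of all sites by the most percentage points among the 19 patterns searched. The other 2 hold neither that pattern nor the RUNX pattern, and are shown because one was the highest ranked member and the other ranked far higher in LSK than in IgG. Each sequence is the whole site on the plus strand of GRCm38 (RefSeq sequence of the mm10 assembly), 5′ to 3′. Capitals mark a match to the C/EBP pattern TTGCNNAA or to the RUNX pattern TGTGGTT, on either strand. The Ier3 site held both.
Slc15a3 intron, chr19:10841817-10842026: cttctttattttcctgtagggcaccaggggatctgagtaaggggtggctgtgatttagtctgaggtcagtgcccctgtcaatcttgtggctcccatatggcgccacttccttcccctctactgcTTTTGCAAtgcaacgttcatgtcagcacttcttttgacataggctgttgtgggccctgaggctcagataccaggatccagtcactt
Adnp, downstream of the start, chr2:168170297-168170466: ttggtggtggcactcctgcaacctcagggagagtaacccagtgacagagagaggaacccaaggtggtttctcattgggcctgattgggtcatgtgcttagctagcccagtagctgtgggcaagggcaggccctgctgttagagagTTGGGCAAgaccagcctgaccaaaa
Ier3, upstream, chr17:35776917-35777166: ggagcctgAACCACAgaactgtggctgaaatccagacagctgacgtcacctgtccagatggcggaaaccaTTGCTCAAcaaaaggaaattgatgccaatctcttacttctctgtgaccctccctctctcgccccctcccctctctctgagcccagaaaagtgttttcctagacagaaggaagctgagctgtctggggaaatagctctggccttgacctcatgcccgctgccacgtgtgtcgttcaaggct
Abca1 intron, chr4:53120457-53120666: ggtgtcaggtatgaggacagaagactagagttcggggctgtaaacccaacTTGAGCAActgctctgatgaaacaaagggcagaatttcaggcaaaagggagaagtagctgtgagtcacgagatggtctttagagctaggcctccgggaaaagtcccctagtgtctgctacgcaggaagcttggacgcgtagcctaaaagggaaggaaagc
Gramd1b intron, chr9:40321517-40321766: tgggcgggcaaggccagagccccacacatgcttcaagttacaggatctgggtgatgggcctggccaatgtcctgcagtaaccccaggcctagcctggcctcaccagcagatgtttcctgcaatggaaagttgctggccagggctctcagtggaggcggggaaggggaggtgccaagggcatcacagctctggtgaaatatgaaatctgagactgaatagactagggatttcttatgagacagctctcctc
Rph3al intron, chr11:75857897-75858066: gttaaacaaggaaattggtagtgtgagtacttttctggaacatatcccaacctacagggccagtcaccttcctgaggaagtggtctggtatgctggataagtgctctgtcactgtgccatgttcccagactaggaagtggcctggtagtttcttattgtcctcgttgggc

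Most sites open in all LSK and IgG libraries were also open with Delta1. Of the 13535 such sites, 10893 (80.5%) had a peak in every Delta1 library and 342 (2.53%) had a peak in none. Between these ends, 212 sites had a peak in 1 Delta1 library, 464 in 2, 347 in 3, 566 in 4 and 711 in 5. The set was thus the end of a series of counts, with neighbours that missed it narrowly. A further 451 sites lacked a peak in 1 of the LSK and IgG libraries and had none with Delta1, and 198 of them had a weaker peak in the full list of the library that lacked one. The members just inside the limit were a site 68.0 kb upstream of Abca1, with its lowest LSK or IgG peak at rank 32943, a site at the Ttc3 promoter at rank 32939 and a site 7.69 kb downstream of the Htr1b start at rank 32932. The sites just outside included one near Myb and one near Fam184a, whose peaks in LSK replicate 2 ranked 32961 and 32977, and one near Ddit4 at rank 32982 in the same library. On the Delta1 side, sites near Slc22a29, Rpa2 and Gm14496 were left out by single peaks at rank 32944 in DN1 replicate 2, 32934 in DN1 replicate 1 and 32918 in DN2a replicate 1.

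The libraries differed in how many peaks were called, and the equal list length was set by the shortest list. The full lists held 53869 to 62377 peaks in LSK, 37511 and 37510 in IgG replicates 1 and 3, fewer in IgG replicate 2, which was used whole, 69391 and 96436 in DN1, 57729 and 68478 in DN2a and 61484 and 111582 in DN2b. The kept lists stopped at scores from 2 in IgG replicate 2 to 65 in DN2b replicate 2. Read depth is not in the lists and is unknown. At equal list length the promoter of Kit had a peak in all 12 libraries, and the promoters of Il2ra, which encodes CD25, and of Cd3e had one in the 4 DN2 libraries and in no other. The promoter of Ly6a, which encodes the SCA1 antigen used to sort LSK cells, had no peak in any library, LSK included.

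Many members had a weaker peak in some Delta1 library and few had one in all. A weak or weaker peak here is one ranked beyond the kept peaks of its own library, whatever its place in the full list. In the full lists, 280 of 342 members (81.9%) had a weaker peak in at least 1 Delta1 library, beside 50.1% of the 26161 consensus DHSs with no Delta1 peak at equal length. Those other sites were mostly seen in few control libraries, 11852 of them in 1 only. No Delta1 library had even a weak peak at 62 members (18.1%). A weak peak was found in 1 library at 67 members, in 2 at 80, in 3 at 43, in 4 at 35, in 5 at 37 and in all 6 at 18. Of the sites with no Delta1 peak at equal length, 13.3% had a weak peak in 1 library, 11.0% in 2, 6.78% in 3, 6.19% in 4, 6.02% in 5 and 6.78% in all 6. The members were above these shares for 1 to 5 libraries and slightly below, at 5.26%, for all 6. Over the 2052 pairs of a member and a Delta1 library, 789 (38.5%) had a weak peak.

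Weak peaks lay mainly in DN1. DN1 replicate 1 had one at 251 members (73.4%) and DN1 replicate 2 at 171 (50%), against 53.8% and 37.0% of all sites that lacked a peak at equal length in the same library. In DN2a the members were below these shares, with 111 (32.5%) and 52 (15.2%) against 38.4% and 23.3%. In DN2b they were also below them, with 64 (18.7%) and 140 (40.9%) against 28.8% and 49.7%. Those sites include ones with a peak in other Delta1 libraries, which the rule denies to members. Among the 25819 other sites with no peak in any Delta1 library at equal length, weak peaks were at 41.0% and 26.0% in DN1, 22.0% and 13.5% in DN2a, and 16.3% and 31.4% in DN2b. The members were above this second share in all 6 libraries, by the most in DN1, so their place in DN2a and DN2b turned with the sites they were set against. The 2 longest lists, DN1 replicate 1 and DN2b replicate 2, had the most weak peaks within their stages.

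Reading every Delta1 list only as far as rank 50000 removed that difference in length and left DN1 with the highest shares. To that rank, peaks remained at 135 (39.5%) and 109 (31.9%) of the members in DN1, with backgrounds of 27.3% and 24.6%. In DN2a the shares were 18.1% and 13.5% (background 25.9% and 21.1%), and in DN2b they were 13.2% and 9.94% (background 21.7% and 23.9%). The other sites with no Delta1 peak had 13.8% and 12.7% in DN1, 10.5% and 10.4% in DN2a and 8.83% and 7.79% in DN2b, again below the members in each library. Both DN1 libraries were above all 4 DN2 libraries, and DN2b replicate 2 moved from the third highest share in the full lists to the lowest. Both replicates of a stage had a weak peak at 161 members (47.1%) in DN1, 41 (12%) in DN2a and 56 (16.4%) in DN2b. Among the other sites without a Delta1 peak the shares were 23.4%, 10.7% and 15.1%, lower in each stage and close to the members in both DN2 stages. By stage, 103 members had weak peaks in both DN1 libraries and in neither pair of DN2 libraries, 18 in both libraries of all 3 stages, and 163 in no pair. The weak peaks had a median rank of 49336 and 46787 in DN1, 48401 and 43120 in DN2a, and 45811 and 67184 in DN2b.

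**Figure D1:**
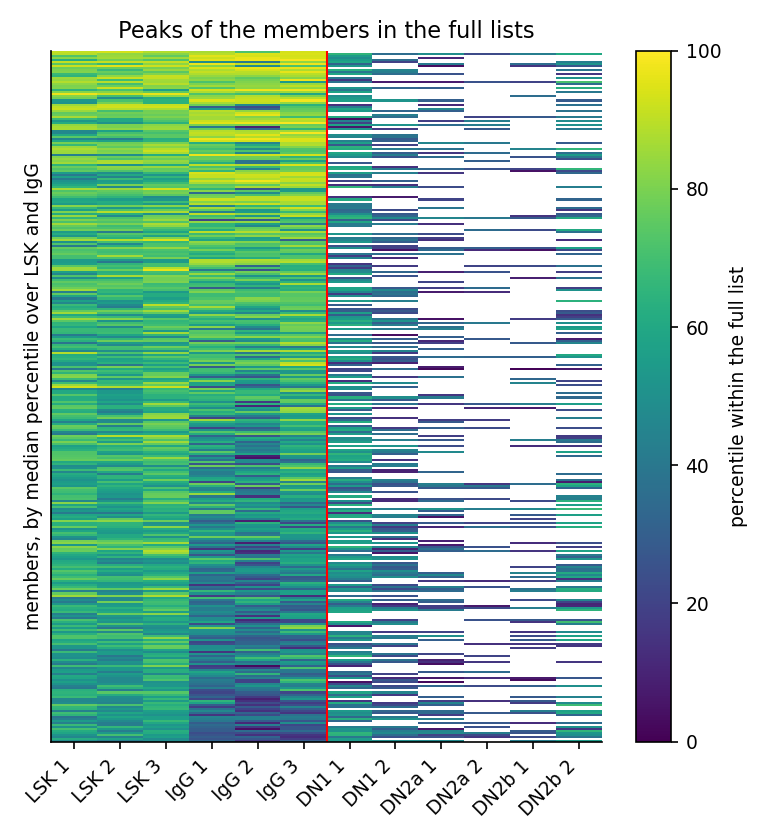
Heat map of the 342 members (rows, ordered by their median percentile over LSK and IgG) in the 12 full peak lists (columns). Colour gives the percentile of the peak within the full list of that library, white marks no peak, and the red line separates LSK and IgG from the Delta1 libraries. The DN1 columns hold the most weak peaks of the Delta1 stages, at 251 and 171 members.

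**Figure D2:**
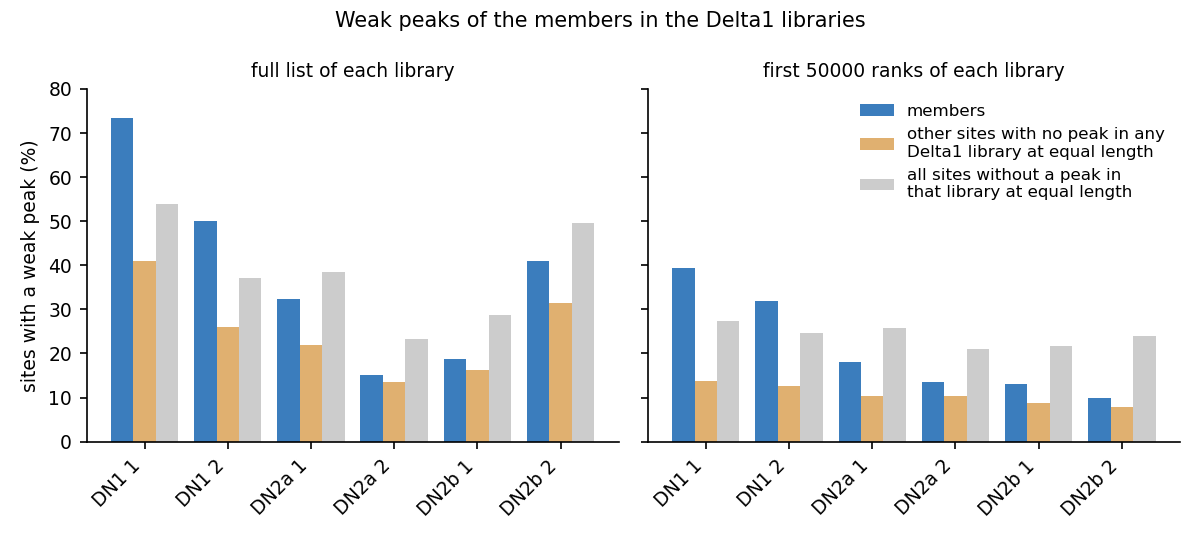
Share of sites (%) with a weak peak in each Delta1 library, in the full list (left) and in its first 50000 ranks (right), for the members (blue), the 25819 other sites with no peak in any Delta1 library at equal length (tan) and all consensus DHSs without a peak at equal length in that library (grey). The blue bar is above the tan bar in every library, above the grey bar in DN1 and below the grey bar in DN2a and DN2b, on both sides.

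The members ranked in the lower and middle part of the lists. A percentile here is the place of a site's best peak among the kept peaks of that library, with 100 for the highest score. Median percentiles of the members were 42.8, 39.7 and 41.0 in the 3 LSK libraries and 56.9, 53.8 and 57.7 in the 3 IgG libraries, so the groups did not overlap and IgG was higher at equal list length. This order turned when percentiles were taken within the full lists, which are longer in LSK: the medians were then 65.0, 63.6 and 68.8 in LSK and 62.1, 53.8 and 62.8 in IgG. Sites open in all 12 libraries had medians from 80.5 to 81.0 in LSK and from 77.2 to 78.5 in IgG, with LSK the higher group. The median difference between IgG and LSK was 13.2 percentile points over the members and -1.39 over all 13535 sites open in LSK and IgG, and within the full lists it was -8.43 and -8.45. All orders of LSK and IgG given from here on are those at equal list length.

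Site by site, 137 members (40.1%) had all 3 IgG percentiles above all 3 LSK percentiles, beside 15.6% of all sites open in LSK and IgG. The opposite order, with all LSK above all IgG, was found at 35 members (10.2%), beside 23.7%. At the other 170 members (49.7%) the groups overlapped. Within the full lists, IgG was above at 69 members (20.2%, beside 5.15%) and LSK at 112 (32.7%, beside 50.1%). Ranks in LSK and IgG are part of the readout that chose the members, so these shares were not tested. They differed with the number of Delta1 libraries that had a peak. IgG stood above LSK at 35.4% of sites with 1 such library, 31.9% with 2, 27.7% with 3, 22.4% with 4, 20.4% with 5 and 12.7% with 6. The median LSK percentile rose along the same sites, from 40.1 at the members to 80.8 at the sites with 6, so the LSK level moved with the count as well, and its part in the order of the groups was not tested.

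**Figure D3:**
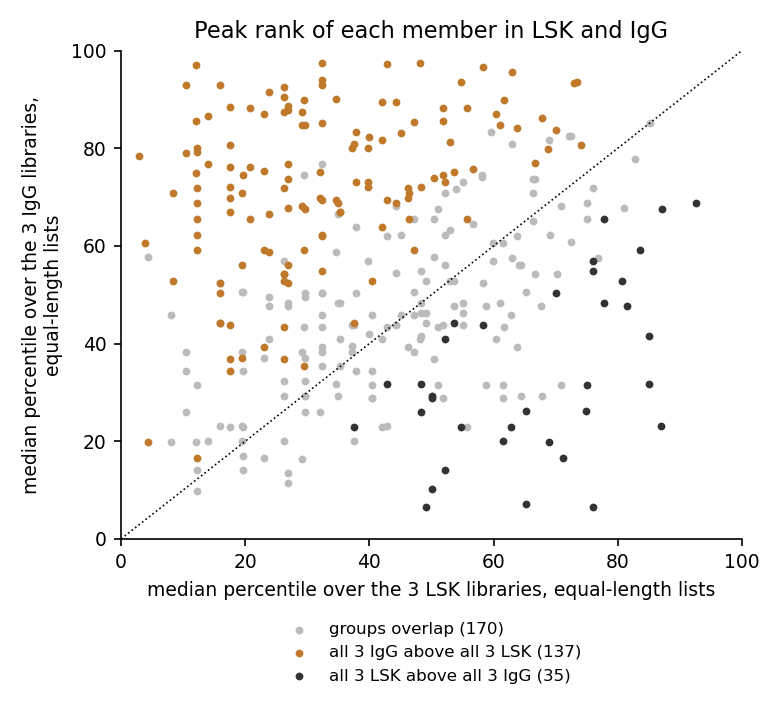
Each point is 1 of the 342 members, placed by its median percentile over the 3 LSK libraries (horizontal) and over the 3 IgG libraries (vertical). Orange points are the 137 members with every IgG library above every LSK library, black points the 35 in the opposite order and grey points the 170 that overlap, all at equal list length; the dotted line marks equal percentiles.

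The highest ranked member was an intronic site of Gramd1b, a sterol transfer protein of the endoplasmic reticulum, 52.4 kb downstream of the start of Scn3b. Its percentiles were 85.3, 88.8 and 77.9 in LSK and 85.3, 72.0 and 92.6 in IgG, and it had no weak peak in any Delta1 library. The groups overlapped at this site, whose sequence is printed above without a C/EBP or RUNX match. The second was an intronic site of Slc15a3, a lysosomal peptide and histidine transporter, 2.19 kb downstream of its start. It had percentiles of 82.6, 73.4 and 66.4 in LSK and 87.9, 94.9 and 93.7 in IgG, with IgG above LSK throughout, and in contrast to the Gramd1b site it had a weak peak in all 6 Delta1 libraries. The 2 leading members thus stood at opposite ends in their weak Delta1 peaks.

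The site 36.7 kb downstream of the start of Adnp, a homeobox transcription factor gene, had percentiles of 54.8, 75.4 and 53.6 in LSK and 95, 93.7 and 92.6 in IgG, and a weak peak in DN1 replicate 1 alone. The site 44.6 kb upstream of Ier3, an immediate early gene that responds to stress and NF-kB, reached 42.8, 72.4 and 83.5 in LSK and 81.8, 82.5 and 85.1 in IgG. It lay in an exon of a non-coding gene and had no weak peak with Delta1. These sites carried the C/EBP pattern, and IgG was above LSK at the first and overlapped it at the second. At a site 15.7 kb upstream of Tpd52, which encodes a vesicle trafficking protein, LSK percentiles were 37.9, 64.4 and 48.2 and IgG percentiles were 95.5, 97.5 and 98.3. An intronic site of Runx2, a RUNX factor best known in bone, had 72.2, 50.4 and 79.7 in LSK and 77.8, 82.5 and 83.1 in IgG. IgG was above LSK in every library at the Tpd52 site and overlapped it at the Runx2 site.

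The order was reversed at 2 of the highest members with intronic or upstream positions. The intronic site of Ltbp3, a binding protein of latent TGF-beta, had 85.3, 85.1 and 83.5 in LSK and 41.6, 40.9 and 80.9 in IgG. The site 9.21 kb upstream of Galnt6, a glycosyltransferase gene, had 95, 86.4 and 92.7 in LSK and 68.8, 69.5 and 54.2 in IgG. LSK was above IgG in every library at both, although IgG replicate 3 came close at Ltbp3. Others of the 20 highest members lay near Gm9964, H2-Q7, Rhov, Trim8, Lrrc8d, Gas7, Gramd3, Rhoq, Ddx19a, Atp10a and Zfp36.

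Among the members where IgG was separate from LSK, the widest gap was at an intronic site of Abca1, the cholesterol exporter, 39.3 kb downstream of its start. Its percentiles were 12.1, 4.35 and 29.6 in LSK and 97.1, 97.7 and 94.0 in IgG. It went from among the weakest LSK peaks kept to among the strongest IgG peaks, had a weak peak in DN1 replicate 2 alone, and holds the C/EBP match printed above. An intronic site of Dcakd, 21 kb upstream of the start of Nmt1, an N-myristoyltransferase gene, had 3.83, 34.7 and 10.4 in LSK and 90.0, 92.9 and 93.0 in IgG. A site 67.3 kb downstream of the start of Scarb1, the high-density lipoprotein receptor gene, had 8.02, 16 and 29.6 in LSK and 96.5, 92.9 and 92.2 in IgG. The next sites were in an intron of Nrg1, a ligand of ERBB receptors, with 26.3, 1.17 and 2.88 in LSK and 78.5, 32.4 and 81.7 in IgG, and 5.41 kb upstream of 1700122O11Rik, with 12.1, 16 and 10.4 against 77.0, 86.2 and 85.7. IgG replicate 2 was near LSK at the Nrg1 site and far from it at the others.

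In the opposite direction, an intronic site of Babam2, a subunit of a BRCA1-containing complex, had 76.0, 68.0 and 77.0 in LSK and 6.54, 26.2 and 1.22 in IgG. A site in an untranslated region of St3gal2, a sialyltransferase gene, had 84.0, 88.2 and 87.0 in LSK and 19.8, 23.1 and 68.8 in IgG. The intronic Rph3al site printed above, in a gene for a regulator of exocytosis, had 61.5, 69.1 and 65.2 in LSK and 3.24, 35.3 and 7.05 in IgG. LSK was separate from IgG at all 3, and the St3gal2 site had a single high IgG library. A site in an untranslated region of Cbr1, a carbonyl reductase gene, had 71.2, 66.7 and 74.0 in LSK and 22.9, 8.88 and 16.6 in IgG. The promoter of Glb1l2 had 88.5, 80.8 and 85.0 against 13.1, 35.3 and 31.7. These 5 sites had weak peaks in at least 1 DN1 library each.

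Most members lay away from promoters. A site was called a promoter when its midpoint was within 1 kb of the 5′ end of a protein-coding gene in GENCODE release M21. By this measure 41 members (12%, 95% Wilson interval 8.96 to 15.9) were promoters, against 21.4% of all consensus DHSs, 10.9% of the 1420 sites open in LSK only, 5.16% of the 4803 sites in IgG only and 7.13% of the 1417 sites in Delta1 only. The promoter share of the sites open in all 12 libraries was 64.8%. With the full peak lists the rule gave 168 members, of which 13 (7.74%) were promoters. Introns of protein-coding genes held 135 members (39.5%) and 145 (42.4%) lay between genes, close to 41.6% and 39.2% of all sites. Untranslated regions held 21, introns of non-coding genes 17, non-coding exons 16 and coding exons 8. The median distance to a protein-coding start was 25.6 kb (quartiles 5.75 and 66.9 kb) and the longest was 726 kb, against a median of 14.8 kb over all sites. Within 10 kb of a start lay 111 members (32.5%, against 43.1% of all sites), and 46 (13.5%, against 12%) were over 100 kb away.

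The median width of the members was 210 bp, with a range from 150 to 450 bp, beside 190 bp over all sites and 170 bp over LSK only and IgG only sites. The nearest DHS with a Delta1 peak was at a median distance of 7.82 kb, beside 15.4 kb for LSK only and 8.04 kb for IgG only sites. Measured between midpoints, it was within 500 bp at 20 members (5.85%), within 1 kb at 42 and within 5 kb at 144. At those 20 a Delta1 peak lay beside the site and not on it.

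The promoter members with the highest ranks belonged to genes of varied function. The promoter of H2-Q7, a non-classical MHC class I gene, had percentiles of 87.2, 93.4 and 85.7 in LSK and 78.5, 48.3 and 67.6 in IgG. The promoter of Tppp3, a tubulin-binding protein gene, had 80.2, 72.4 and 77.9 in LSK and 65.6, 48.3 and 68.8 in IgG. LSK was above IgG at both, and both had weak peaks in most Delta1 libraries. H2-Q7 belongs to a family of closely similar genes, so reads there may be shared with its neighbours. At the promoter of Ctnnd1, which encodes the adhesion protein p120 catenin, LSK had 75.1, 58.8 and 66.4 and IgG had 70.8, 69.5 and 78.5. The promoter of Dazl, a germ cell RNA-binding protein gene, had 75.1, 69.1 and 76.0 against 68.8, 45.9 and 71.0. The groups overlapped at these promoters.

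The promoter of Hcar2, the niacin and ketone body receptor of myeloid cells and adipocytes, had 47.2, 34.7 and 53.6 in LSK and 84.1, 85.5 and 89.7 in IgG. At the promoter of Lonrf3 the values were 15.9, 29.1 and 59.6 in LSK and 77.8, 68.2 and 67.6 in IgG. IgG was above LSK in every library at both, in contrast to H2-Q7 and Tppp3. The promoter of Gstp2, a glutathione transferase gene, had 75.1, 44.3 and 78.8 against 65.6, 70.8 and 59.2 in IgG. Dnah6, an axonemal dynein gene, had 76.9, 79.9 and 66.4 in LSK and 57.6, 38.2 and 67.6 in IgG. Metrnl, which encodes a secreted protein, had 76.0, 42.1 and 44.3 in LSK and 71.7, 68.2 and 57.7 in IgG. LSK and IgG overlapped at Gstp2, Dnah6 and Metrnl. Further promoter members were at Zfp563, Hoxa5, Rnd3, H2-DMb1, Glb1l2, Ptges, Nlrx1, Nab2, P2rx6, Etv1, Nim1k, Card9, Gsr, Dennd5a, Layn, Selenbp1, Wwc2, Cnksr3, Lrmda, Zfp827, B4galt6, Osbp2, Clec4a3, Ttc3, Gm42791, Hk3, Yaf2, Plekha8, Pbx3, Acpp and Nid2. A promoter member is a single site, and another site of the same promoter could have a Delta1 peak. The nearest DHS with such a peak was 0.32 kb away at Lrmda and Yaf2, 0.38 kb at Nlrx1 and 59.5 kb at H2-Q7. Beside the 41 promoter members, only 32 genes had a promoter open in every LSK and IgG library and closed in every Delta1 library.

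The members were spread over many genes. The 342 sites had 327 different nearest protein-coding genes. Nearest position does not show which gene a site acts on. Only Esr2, an oestrogen receptor gene, and Tpd52 were nearest to 3 members. The Esr2 sites lay 17.5 to 19.5 kb upstream of its start and within 2.27 kb of each other, and all 3 had a weak peak in both DN1 libraries. They were not alike in order. The first had a median percentile of 54.8 in LSK and 22.8 in IgG with LSK above, while the others, with 50.4 and 36.8, and 29.6 and 25.9, overlapped. The Tpd52 sites were spread over 50.3 kb. The one 15.7 kb upstream had IgG above LSK, the one 20.8 kb into the gene had a median of 76.0 in LSK and 54.9 in IgG with LSK above, and the third, 29.3 kb upstream, overlapped. Another 11 genes were nearest to 2 members each: Abca1, Dct, E030018B13Rik, Fndc3b, Hlx, Irf2, Sfi1, Supt3, Trib1, Vmn1r2 and Zfp36l1. Both Abca1 members had IgG above LSK. Sfi1 was the nearest gene of 84 consensus DHSs, and Esr2 of 7. In 200-bp windows, 76% and 85% of the bases were masked as repeats at the Sfi1 members. At the Vmn1r2 members it was 68% and 80%, so reads at both pairs may be shared with other copies. More than 50% of the bases were masked at 12 members (3.51%, beside 3.49% of all sites).

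Of the gene lists examined, the one of 25 haematopoietic progenitor transcription factors had the most members near it, at 6 (1.75% of members, against 0.367% of all sites and 0.281% of the 13535 sites open in LSK and IgG). They included sites near Gata2, Hhex, Hoxa5, Lmo2 and Myb. In all, 38 sites open in LSK and IgG were nearest to genes of this list. The Lmo2 site, 51.2 kb upstream of the gene for this bridging factor of the GATA and TAL1 complex, had 59.9, 54.0 and 56.6 in LSK and 62.0, 81.7 and 75.8 in IgG, with weak peaks in both DN2b libraries and in no other. The Hoxa5 site, at the promoter of a homeobox gene active in progenitors, had 54.8, 12.3 and 46.3 in LSK and 76.3, 72.0 and 68.8 in IgG. The Hhex site, 1.83 kb downstream of the start of another homeobox gene, had 49.2, 46.4 and 14 in LSK and 65.6, 81.7 and 60.8 in IgG. IgG was above LSK at all 3.

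The same held at Myb. The Myb site, 93.6 kb from the start of this proto-oncogene and inside an intron of its neighbour Ahi1, had 12.1, 26.2 and 34.9 in LSK and 72.7, 72.0 and 68.8 in IgG. At the site 27.6 kb upstream of Gata2, which encodes a factor needed by stem cells, the values were 42.8, 19.5 and 55.1 in LSK and 82.4, 43.4 and 41.9 in IgG, and the groups overlapped. The sites of Hoxa5, Myb and Gata2 had no weak peak in any Delta1 library.

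Other lists had 2 members or fewer, and all these shares rest on very few sites. The neutrophil and granule list took 0.585% of members against 0.114% of all sites, a ratio no smaller than that of the progenitor factors, and the inflammatory list 0.585% against 0.312%. The neutrophil and granule list had a site 1.11 kb inside Mgst1, a microsomal glutathione transferase gene, with 12.1, 29.1 and 50.1 in LSK and 87.4, 87.4 and 83.7 in IgG, and a site at the promoter of Hk3, the hexokinase of myeloid cells, with 3.83, 16 and 26.8 against 41.6, 54.9 and 50.4. Neither had a weak Delta1 peak and IgG was above LSK at both. The inflammatory list had a site 3.80 kb past the start of Nfkbia, which encodes the inhibitor of NF-kB, with 42.8, 52.2 and 17.5 in LSK and 92.6, 97.3 and 97.7 in IgG. It also had a site 72.1 kb downstream of the start of Tnfaip3, the A20 enzyme that limits NF-kB signalling, with 47.2, 66.7 and 75 against 73.7, 60.6 and 86.7. The groups were separate at Nfkbia and overlapped at Tnfaip3.

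Single members (0.292%) were near Klf4, Csf2ra, Gp9 and Bank1, whose lists took 0.425%, 0.222%, 0.134% and 0.065% of all sites. The site 119 kb upstream of Klf4, a monocyte transcription factor gene, had 76.0, 86.4 and 83.5 in LSK and 74.6, 48.3 and 59.2 in IgG. The site in Csf2ra, the GM-CSF receptor alpha chain, had 76.9, 66.7 and 76.0 in LSK and 60.5, 56.9 and 34.5 in IgG. LSK was above IgG at both. The sites near Gp9, a platelet receptor subunit gene, with 56.6, 29.1 and 32.4 against 57.6, 62.3 and 62.3, and near Bank1, a B cell adaptor gene, with 59.9, 34.7 and 26.8 against 64.4, 69.5 and 69.9, had IgG above LSK. No member was nearest to a gene of the T lineage, Notch pathway, mast cell or progenitor surface lists. A count of 0 of 342 allows a share of up to 0.877%, and these lists took only 0.203%, 0.216%, 0.105% and 0.148% of all sites, so a difference was not detectable with this number of members.

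Promoters of the nearest genes were open in similar numbers with and without Delta1. The 301 members away from promoters had 286 nearest genes, and a peak lay at the promoter of 170, 163 and 160 of them in LSK, 158, 147 and 162 in IgG, 154 and 152 in DN1, 155 and 157 in DN2a and 162 and 163 in DN2b. The Delta1 counts lay within the range of the LSK and IgG counts. As shares these were 51.4% to 59.4%, beside 40.9% to 46.1% of all protein-coding genes. Promoters of 115 of these genes (40.2%) were open in all 12 libraries, against 34.4% of the 21755 genes, and 94 (32.9%) were open in none, against 47.0%. None of the 286 had the pattern of the members, open in every LSK and IgG library and closed in every Delta1 library, and 32 of the 21755 genes (0.147%) did, so with 286 genes a difference was not detectable.

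In windows of 200 bp around the midpoints, the median GC content was 50.5% in the members and in all consensus DHSs. The median observed to expected CpG ratio was 0.347, against 0.279 over all sites and 0.187 over Delta1 only sites. Away from promoters it was 0.322 in the members, 0.225 over all sites, 0.274 over LSK only, 0.195 over IgG only and 0.177 over Delta1 only sites. Over the sites open in all LSK and IgG libraries it was 0.337, so the members were close to these and above the IgG only sites. On average 10% of the bases were masked as repeats, against 11.1% over all sites.

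Short patterns known to be bound by haematopoietic factors were counted in the same windows on both strands, in sites away from promoters, and a match describes letters and not binding. The patterns were chosen with earlier results of these data known. Sites are not replicates, so the intervals cover counting error only and are no test. The C/EBP pattern TTGCNNAA was found in 92 of 301 members (30.6%, 95% Wilson interval 25.6 to 36.0), against 14.6% of all sites, 13.1% of the sites open in all LSK and IgG libraries, 9.01% of LSK only, 42.2% of IgG only and 5.70% of Delta1 only sites. The RUNX pattern TGTGGTT was found in 16 members (5.32%, interval 3.30 to 8.46), against 14.8% of all sites, 11.7% of the sites open in all LSK and IgG libraries, 12.2% of LSK only, 8.89% of IgG only and 37.1% of Delta1 only sites. In both patterns the members were on the side of the IgG only sites and away from Delta1 only sites.

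The AP-1 pattern TGANTCA was in 17.3% of the members (interval 13.4 to 22.0), 12.8% of all sites and 13.5% of those shared by all LSK and IgG libraries, while the IgG only sites had 21.9%. The PU.1 pattern GAGGAAGT was in 11.6% (interval 8.48 to 15.7) and 8.62% of all sites, a difference within the interval. The GATA pattern AGATAA was in 6.98% (interval 4.61 to 10.4), with 10.4% over all sites, 17.1% in LSK only, 7.29% in IgG only and 16.4% in Delta1 only sites. Of the 92 members with a C/EBP match, 12 also had an AP-1 match, 8 a PU.1 match and 4 a RUNX match, and 142 of the 301 had none of these 4 patterns.

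Of the 19 patterns, the share over all sites lay below the interval of the members for 4 and above it for 2, and within it for the other 13. Against all sites, the members were higher in C/EBP, AP-1, the MYB pattern AACNGCC, at 12.6% (interval 9.34 to 16.9) against 9.26% of all sites, and in the composite pattern of PU.1 and IRF, at 5.65% (interval 3.56 to 8.86) against 3.17%. They were lower in RUNX and in the E-box CAGGTG of the T lineage factors HEB and E2A, at 8.97% (interval 6.24 to 12.7) against 15.4% of all sites, 21.4% of Delta1 only, 13.0% of LSK only and 5.31% of IgG only sites. Against the sites open in all LSK and IgG libraries, most of which were open in all 12 libraries, 2 patterns were higher and 2 lower by the same measure. C/EBP and RUNX were among these, with a HOX pattern, TGATTNAT, at 3.32% (interval 1.81 to 6.01) against 1.80%, and a CTCF pattern, AGGGGGC, at 5.65% (interval 3.56 to 8.86) against 9.93%. AP-1, MYB, the composite of PU.1 and IRF, and CAGGTG were not, since those sites had 13.5%, 10.4%, 3.83% and 11.5%, within the intervals of the members. The RBPJ pattern TGGGAA, bound by the DNA-binding partner of Notch, was in 18.3% of the members (interval 14.3 to 23.0) and 17.3% of all sites. With 19 patterns searched, intervals that narrowly miss a share they are set against, as for MYB with all sites and HOX with the sites of LSK and IgG, carry little weight.

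**Figure D4:**
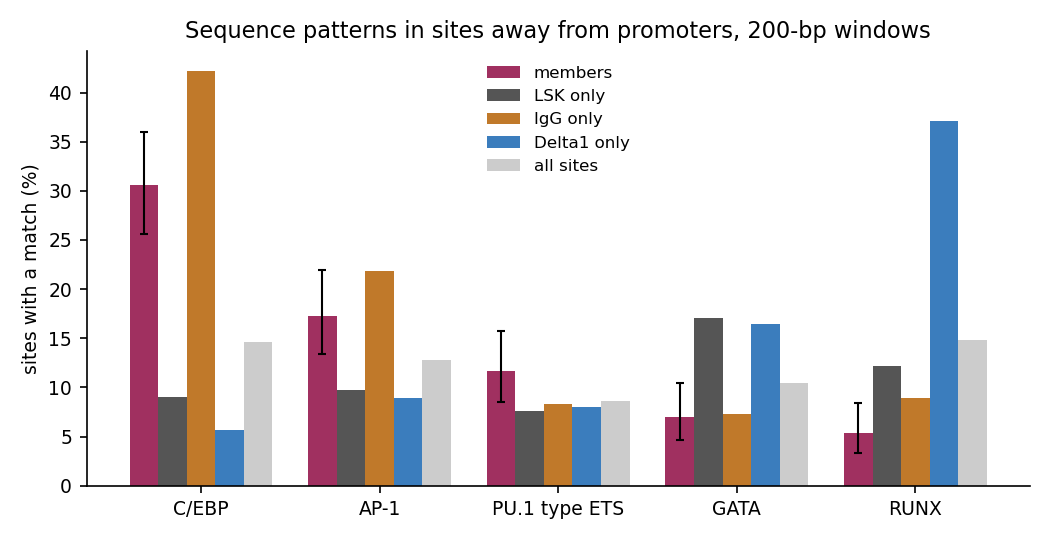
Share of sites away from promoters (%) with a match to each of 5 patterns in 200-bp windows, for the 301 members and for LSK only, IgG only, Delta1 only and all sites; error bars are 95% Wilson intervals of the members' share and cover counting error only. The members have a C/EBP match at 30.6% and a RUNX match at 5.32%, and the Delta1 only sites at 5.70% and 37.1%.

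The C/EBP share differed within the set. It was 45.9% (56 of 122, interval 37.3 to 54.7) at members with IgG above LSK, 20.3% (30 of 148, interval 14.6 to 27.5) where the groups overlapped and 19.4% (6 of 31, interval 9.19 to 36.3) where LSK was above. Among the other sites open in LSK and IgG the corresponding shares were 21.7%, 10.9% and 8.03%. Each of these lay below the interval of the members of the same order. Most of these other sites were open in all 12 libraries, where the share was 9.76%. The difference is therefore not separate from the change with the number of Delta1 libraries given below. By weak Delta1 peaks, the share was 40.7% (24 of 59, interval 29.1 to 53.4) with none, 30.3% (50 of 165, interval 23.8 to 37.7) with 1 to 3 libraries and 23.4% (18 of 77, interval 15.3 to 34.0) with 4 to 6. Among other sites without a Delta1 peak it was 34.6%, 16% and 9.53%. For members without a weak Delta1 peak the interval held the share of the other sites, and for both classes with weak peaks it lay above it.

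Across all sites open in LSK and IgG, the shares changed with the number of Delta1 libraries that had a peak. The C/EBP share was 30.6% at the members, 25.1% with 1 library, 20.9% with 2, 16.2% with 3, 16.9% with 4, 12.6% with 5 and 9.76% with 6. The RUNX share was 5.32% at the members, 8.0% with 1, 13.2% with 2, 9.03% with 3, 11.2% with 4, 12.6% with 5 and 12.4% with 6. The C/EBP share fell at each step but that from 3 to 4, and the RUNX share was lowest at the members, with an interval that overlapped that of the sites with 1 library (4.83 to 13.0). The C/EBP intervals of the members and of the sites with 1 library (19.3 to 32.1) overlapped as well, so neither share set the members apart from those sites.

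**Figure D5:**
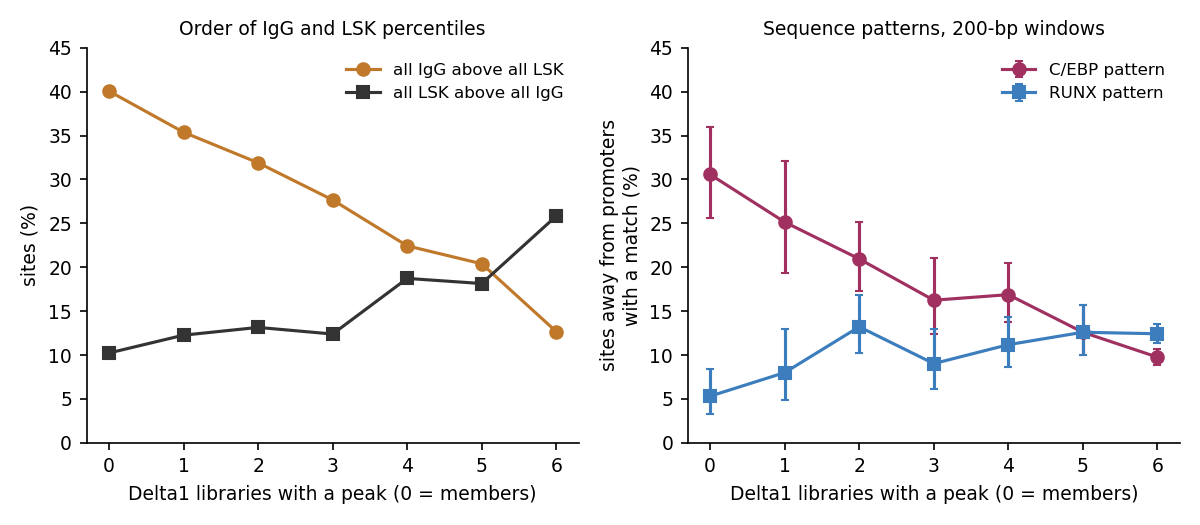
Sites open in all LSK and IgG libraries, by the number of Delta1 libraries with a peak (0 to 6, 0 being the members). Left, share (%) with every IgG percentile above every LSK percentile (orange) or the opposite (black); right, share (%) of sites away from promoters with a C/EBP or RUNX pattern, with 95% Wilson intervals. The share with IgG above runs from 40.1% to 12.7% and the C/EBP share from 30.6% to 9.76%.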

How the data were processed

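DNase-seq peak lists of 12 libraries (3 LSK, 3 IgG, 2 DN1, 2 DN2a, 2 DN2b) were used, grouped by their labels. Replicates were numbered in accession order, which carries no pairing. Libraries of different DN stages can share an LSK isolate, and the labels do not say which do. Reads had been trimmed and mapped to mm10 by the authors (bwa 0.7.12), and hotspot2 peaks were called for each library alone at FDR 0.05. Each deposited list gives position and a score, a whole number from 1 to 150 with no stated meaning, so only its order within a library was used. Every peak was 150 bp wide. Read totals were not in the lists, so depth is unknown. A shorter list may miss weaker sites.

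Peaks on chromosomes 1 to 19 and X were used, and the 463 peaks elsewhere were left out. The highest 32952 peaks of each library, with ties at the threshold taken by position, were merged at an overlap of 1 bp. A percentile was the midrank of the score within that library, and weak peaks were those of the full list beyond rank 32952. Genes were the 21755 protein-coding genes of GENCODE release M21 on GRCm38, an annotation later than the study's, and sequence was RefSeq GRCm38.p6. Motifs were searched in 200-bp windows at 19 patterns. Intervals are 95% Wilson intervals and cover counting error only, and sites are not replicates. The calculations used python 3.11.15, numpy 2.4.6, pandas 2.3.3 and scipy 1.17.1, and the selection was tested on simulated lists. No significance test was run, since the readout chose the members. Members, gene lists and patterns were chosen with earlier results of these data known.

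Genes are named by a rule: the 20 members with the highest median percentile over LSK and IgG, the promoter members (values for 10), genes nearest to 3 or more members, the 5 widest differences between IgG and LSK in each direction among members whose groups did not overlap, members nearest to genes of the 11 lists, and the 3 sites nearest the threshold on each side. Some sites that the rule names are not reported here. Genes nearest to 2 members were added after their values were seen. Alternatives changed list length, ties, merging, the number of libraries required, promoter definition and window, and left out each library. Weak peaks to rank 50000, percentiles within full lists and motif shares away from promoters were added after seeing the data.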

Additional observations from a re-analysis of the deposited data

How the results depend on the processing

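The number of members was 342, fell to 168 with the full lists and rose to 966 when a peak in at least 2 LSK and 2 IgG libraries was enough. The share at promoters, 12% as reported, was 16.9% with 25000 peaks per library, 17.1% with 20000, 7.74% with full lists, and 16.7% both with a window of 2.5 kb and with every protein-coding transcript start. The share of members with a weak Delta1 peak was 91.7% with 25000 peaks and 94.6% with 20000, where more of each list counts as weak. Full lists leave no weak peak, so this share has no value there. With full lists the rule gave 168 members, a set that differs from the reported one. There the share with IgG above LSK was 46.4% and the share with LSK above IgG was 8.93%. For the reported members with percentiles within the full lists, chosen after seeing the data, these shares were 20.2% and 32.7%. The more frequent order thus turned for the reported members and not for the 168. Leaving out each library in turn, the number of members was 352 to 439, the weak peak share 72.3% to 83.0% (lowest without DN1 replicate 1), the share with IgG above LSK 36.0% to 49.4% and the share with LSK above IgG 9.84% to 16.3%; a group of 2 libraries is separated from 3 more easily than a group of 3. In 300-bp windows the C/EBP share of all members was 34.2%, against 28.7% in 200-bp windows. Under the other alternatives each of these shares stayed within the 95% interval of its reported value. No paired analysis was possible because the labels carry no replicate numbers shared between groups, and the results come from no test. Depth is unknown, so a missing peak cannot be told apart from one below the caller's limit, and the IgG lists were the shortest.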
